A study of Mus musculus with 9 samples.

Results

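Eosinophils store cationic proteins in their granules and follow IL-5 and eotaxins through surface receptors, and 7 genes for these proteins and receptors were examined out of the 23413 genes in the count table. The genes were Prg2, Epx, Ear1, Ear2, Ear6, Il5ra and Ccr3, taken by symbol as a set of eosinophil genes. They were selected on the Prg2 counts themselves, which were near 0 under vehicle and high in 3 of 4 DPI libraries, so the values for DPI against vehicle are given as a description and carry no test. RNA-seq had been run on macrophages sorted from mouse liver, in 9 libraries. The NC group (2 libraries) came from mice on a normal chow diet, the Veh group (3 libraries) from mice on a high-fat diet (HFD) given vehicle, and the DPI group (4 libraries) from mice on the HFD given diphenyleneiodonium, a compound studied as an agonist of the receptor GPR3. All mice were male C57BL/6 animals placed on their diet at 5 weeks of age for 8 weeks, with no genetic modification named, and DPI at 2 mg/kg or its vehicle (PEG3000) was injected into the peritoneum every 5 days from week 3. The sample labels also carry a treatment text that speaks of 500 nM DPI for 24 h on purified cells, which goes against the dosing of animals in the series' design text and in the study's methods. The dosing of animals was followed here.

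In a mature eosinophil the granule core is built of major basic protein, surrounded by a peroxidase and by secreted ribonucleases. The granule protein genes are transcribed mainly while the cell matures in the bone marrow under GATA factors, whereas the IL-5 and eotaxin receptors remain in use in blood and tissue. Mouse eosinophils carry F4/80 and CD11b on their surface, the markers by which liver macrophages were sorted here, and Ear2 is also transcribed by patrolling monocytes.

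Total counts ran from 3534325 (DPI 2) to 15585775 (DPI 1), and between 27.0% and 44.5% of a library fell on the ribosomal RNA precursor Rn45s. Levels are given as CPM, the counts of a gene per 1000000 counts of the library total, corrected by edgeR's TMM factor, and 3 counts, taken as the least that differs from none, stood for 0.184 to 1.02 CPM. Such floors and the intervals below cover counting error only. The sort took F4/80+CD11b+ cells, with Gr1low added in the study's methods, and the labels call them Kupffer cells. Clec4f, a defining gene of resident Kupffer cells, had 0 and 244 counts on NC, 42, 0 and 0 under vehicle and 219, 6, 4 and 6 under DPI, while Csf1r, the receptor of a macrophage growth factor, lay between 385 and 750 CPM in all 9. The cells are therefore called sorted liver macrophages below. The labels number the mice within each group, and each library is taken as 1 mouse. The study's text gives more mice per group than there are libraries, so whether a library is 1 mouse or a pool cannot be told, and n and SD are over libraries.

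Prg2 encodes major basic protein, the main constituent of the granule core, and lies on chromosome 2 (GRCm38, chr2:84980461-84983632, plus strand, 6 exons). It had 0 and 1 counts on NC, 0, 10 and 0 under vehicle, and 1296, 265, 2 and 468 under DPI. In CPM these were 0 and 0.186 with NC, 0, 1.81 and 0 under vehicle, and 79.3, 89.9, 0.371 and 47.7 under DPI. DPI 1, DPI 2 and DPI 4 stood far above every other library, while DPI 3 lay inside the range of the vehicle libraries, so the DPI and Veh groups overlapped. DPI 2, the shallowest of the 9 libraries, had the highest CPM, while DPI 1 and DPI 4, the deepest, were the other libraries with high Prg2, and the part of depth was not tested. The group means were 0.0932 ± 0.132 CPM (SD, n = 2) for NC, 0.604 ± 1.05 (n = 3) for Veh and 54.3 ± 40.2 (n = 4) for DPI, or 72.3 ± 22.0 (n = 3) without DPI 3. The fitted log2 fold change of DPI against vehicle was 6.31 (SE 1.45), and it was 6.72 (SE 0.97) without DPI 3. The vehicle counts all came from Veh 2, and without that library the fold was at least 77.1 against a floor of 3 counts per vehicle library. Of all 2042 Prg2 counts in the series, 2029 (99.4%) were in DPI 1, DPI 2 and DPI 4. A larger number of cells with the transcript and more of it per cell cannot be told apart in such bulk libraries, for Prg2 or for the other genes.

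Epx encodes eosinophil peroxidase, the granule enzyme that makes hypohalous acids, and lies on chromosome 11 (chr11:87864000-87875536, minus strand, 13 exons). It had 0 counts in each of the 5 NC and Veh libraries and 151, 18, 0 and 101 counts in the DPI libraries, which is 9.24, 6.11, 0 and 10.3 CPM. The 3 libraries with Epx were the 3 with high Prg2, and DPI 3 was again at 0. The mean was 6.41 ± 4.63 CPM under DPI (SD, n = 4), at least 9.86-fold higher than the vehicle floor. This bound was 13.1-fold without DPI 3, 8.40-fold without DPI 1 and 7.86-fold without DPI 4. A level below the floor would not have been seen, since 3 counts in a vehicle library were 0.543 to 0.742 CPM.

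**Figure D1:**
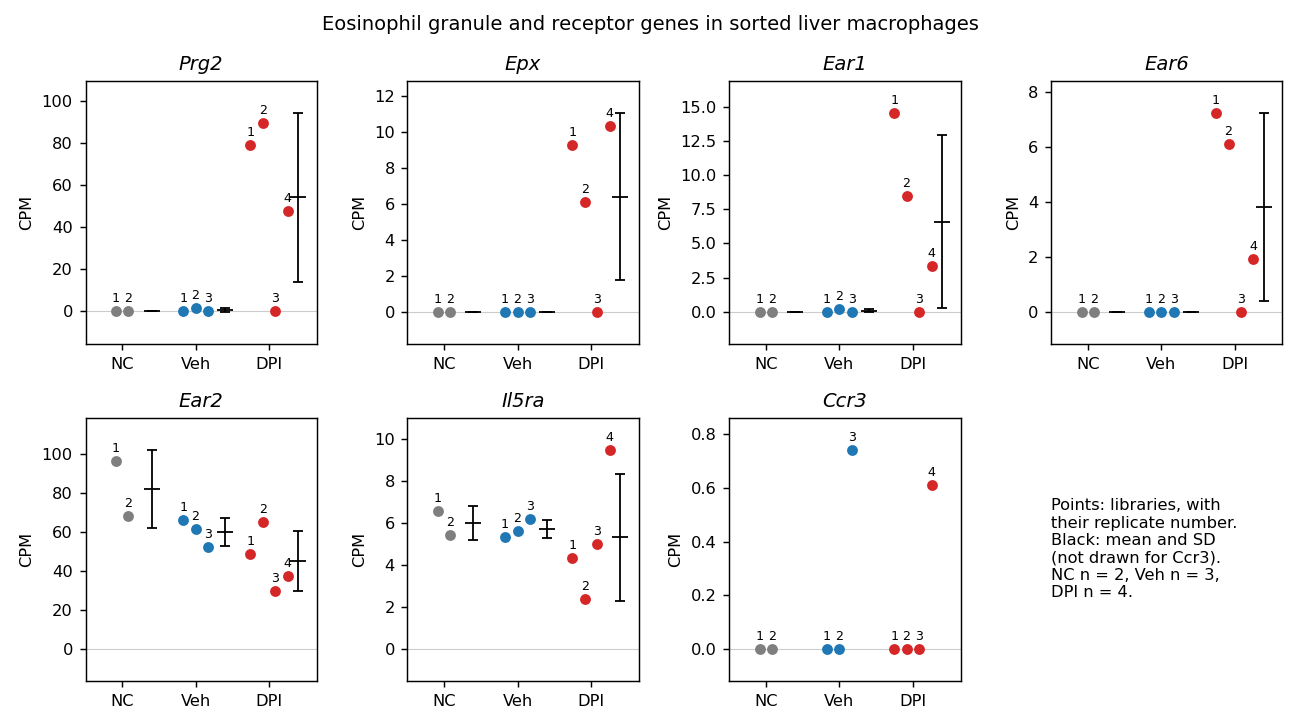
Level of each of the 7 genes in CPM (y axis, linear, a separate scale for each gene) in the NC, Veh and DPI libraries. Points are libraries with their replicate number, and black bars are the mean and SD, not drawn for Ccr3. Prg2, Epx, Ear1 and Ear6 were high in DPI 1, DPI 2 and DPI 4 and at or near 0 in DPI 3 and in all NC and Veh libraries, whereas Ear2 and Il5ra were present in all 9.

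Ear1, Ear2 and Ear6 are eosinophil-associated ribonucleases of the RNase A family, encoded by related copies on chromosome 14. Ear1 is at chr14:43818765-43819639 on the minus strand in RefSeq, with a gene end further out (43875517) in GENCODE M21, Ear2 is at chr14:44102654-44103534 and Ear6 at chr14:51853699-51854643, both on the plus strand. The 250 bases before the RefSeq start site of each gene (GRCm38.p6) are shown because these near copies differed in their pattern across the libraries. Ear2 (chr14:44102404-44102653, plus strand) is the reference of the comparison, and capitals in Ear1 (chr14:43819640-43819889, minus strand) and Ear6 (chr14:51853518-51853767, plus strand) mark bases that differ from Ear2 or have no partner in it. The end of the Ear6 stretch and the whole of the Ear1 stretch lie inside these genes as GENCODE draws them.
Ear2: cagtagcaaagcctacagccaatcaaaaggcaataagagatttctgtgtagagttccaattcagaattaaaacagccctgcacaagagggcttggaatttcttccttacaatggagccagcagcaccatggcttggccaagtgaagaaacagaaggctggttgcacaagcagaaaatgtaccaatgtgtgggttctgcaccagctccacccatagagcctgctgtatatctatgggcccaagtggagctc
Ear1: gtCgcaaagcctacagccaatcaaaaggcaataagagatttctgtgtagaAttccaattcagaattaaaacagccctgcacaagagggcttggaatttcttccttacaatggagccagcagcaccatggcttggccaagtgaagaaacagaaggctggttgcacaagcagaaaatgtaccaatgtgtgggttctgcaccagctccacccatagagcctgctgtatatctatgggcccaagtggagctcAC
Ear6: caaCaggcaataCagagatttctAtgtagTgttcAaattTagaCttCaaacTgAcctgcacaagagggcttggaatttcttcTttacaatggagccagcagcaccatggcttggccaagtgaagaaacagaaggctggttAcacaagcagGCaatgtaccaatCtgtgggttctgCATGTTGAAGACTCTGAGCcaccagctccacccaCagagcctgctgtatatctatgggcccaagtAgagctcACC

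The Ear1 stretch matched Ear2 at 99.2% of aligned bases, with 2 mismatches, and the Ear6 stretch at 93.0%, with 16 mismatches. The motif GATAA, the core that GATA factors bind, was searched on both strands from 250 bases before to 50 bases after the start site. Of the 6 genes with a RefSeq entry (Prg2 had none in the table used), 5 held it, against 8347 of 32851 promoters (25.4%) in the same window. Ear1, Ear2 and Ear6 each held it once, just past the start site and so outside the stretches shown. Il5ra and Ccr3 held it once before the start site, and Epx held none. Ear1, Ear2 and Ear6 are near copies with the motif at positions 4, 7 and 3 on the same strand. The 5 genes are thus not independent, and nothing is read from their share.

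Ear1 had 0 counts in both NC libraries, 0, 1 and 0 under vehicle and 238, 25, 0 and 33 under DPI, which is 14.6, 8.48, 0 and 3.36 CPM under DPI. Ear6 had 0 counts in all 5 NC and Veh libraries and 118, 18, 0 and 19 under DPI, which is 7.22, 6.11, 0 and 1.94 CPM. Both genes were again at 0 in DPI 3, and within the DPI group both were highest in DPI 1. Means under DPI were 6.6 ± 6.35 CPM for Ear1 and 3.82 ± 3.41 for Ear6 (SD, n = 4). The ratio of Ear1 counts per unit of library size between the DPI and Veh groups was 121, with an exact 95% counting interval from 21.5 to 4785 because a single vehicle count stands in it. Of the 296 DPI counts in that ratio, 238 were in DPI 1, the deepest library. The fitted log2 fold change of Ear1 was 6.26 (SE 1.97), and 5.45 (SE 2.23) without DPI 1. Ear6 was at least 5.87-fold higher than the vehicle floor. This bound was 7.82-fold without DPI 3, 4.12-fold without DPI 1 and 4.69-fold without DPI 2.

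Ear2 was present throughout. It had 529 and 364 counts on NC, 298, 339 and 210 under vehicle and 797, 191, 160 and 365 under DPI. In CPM these were 96.2 and 67.9 with NC, 66.1, 61.4 and 52.0 under vehicle, and 48.8, 64.8, 29.6 and 37.2 under DPI. The DPI libraries overlapped the vehicle libraries, and the one with the least Ear2 was DPI 3. The mean was 59.8 ± 7.18 CPM under vehicle (SD, n = 3) and 45.1 ± 15.3 under DPI (n = 4), a log2 fold change of -0.41 (SE 0.32), against 6.31 for Prg2 in the same fit. The median over all 11393 genes was 0.04.

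Reads of the near copies can be hard to assign. The annotated transcripts of Ear1 and Ear2 were 96.8% identical, and 23.8% of all 50-base windows of Ear1 occurred unchanged in Ear2, against 1.36% in Ear6, so Ear1 counts are uncertain to that extent. In the 5 NC and Veh libraries, however, Ear2 had 210 to 529 counts and Ear1 0 or 1, so very few counts had been given to Ear1 where only Ear2 was high. Ear3 and Ear12 had equal counts in all 9 libraries, from 38 to 93, and cannot be told apart in this table. Of the other copies, Ear5 had 3 counts in DPI 3, 12 in DPI 4 and 0 elsewhere, and Ear4, Ear7, Ear10, Ear11 and Ear14 were at 0 in every library.

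**Figure D2:**
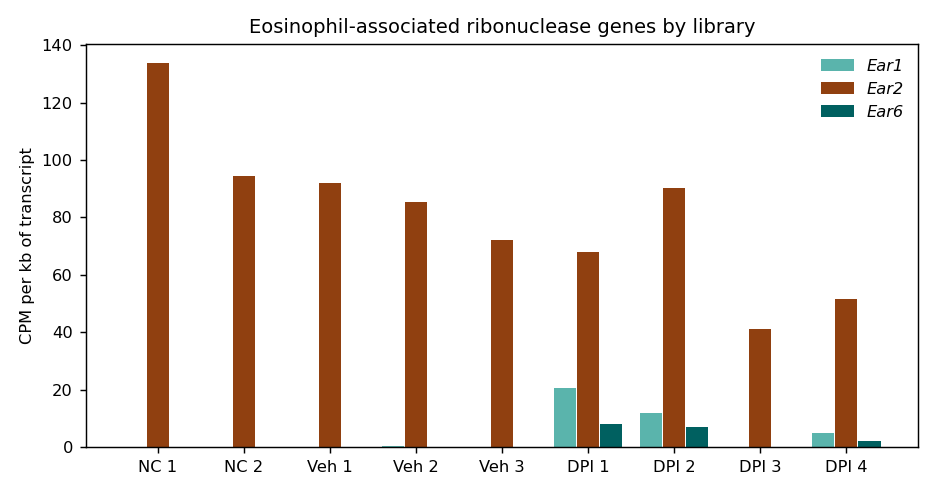
Level of Ear1, Ear2 and Ear6 per kb of transcript (y axis, CPM per kb, linear) in each of the 9 libraries. Ear2 lay between 41.2 and 134 CPM per kb in every library, whereas Ear1 reached 20.4 and Ear6 8.09 in DPI 1 and both were at 0 in DPI 3.

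The levels of different genes were compared per kb of transcript. In the 2 NC libraries, the 3 Veh libraries and DPI 3, Ear2 was the highest of the 7 genes. In DPI 1, DPI 2 and DPI 4 Prg2 came first, at 94.6, 107 and 56.9 CPM per kb, with Ear2 next at 67.8, 90.1 and 51.7 and then Ear1 at 20.4, 11.9 and 4.71. Over the 4 DPI libraries the means of Prg2 and Ear2, 64.8 and 62.7 CPM per kb, were closer than their spread.

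The 4 granule genes that appeared together were set against each other by their shares of their summed counts, 1803 in DPI 1, 326 in DPI 2 and 621 in DPI 4. Prg2 made up 71.9% of them in DPI 1 (exact Clopper-Pearson 95% interval 69.7 to 73.9%), 81.3% in DPI 2 (76.6 to 85.4%) and 75.4% in DPI 4 (71.8 to 78.7%). Epx made up 8.37% in DPI 1 (7.14 to 9.75%), 5.52% in DPI 2 (3.30 to 8.59%) and 16.3% in DPI 4 (13.4 to 19.4%). Epx thus took a larger share in DPI 4 than in the other libraries, beyond counting error. Ear1 went the other way, with 13.2% in DPI 1 (11.7 to 14.9%), 7.67% in DPI 2 (5.02 to 11.1%) and 5.31% in DPI 4 (3.69 to 7.38%). The count ratio of Epx to Ear1 was 0.635 in DPI 1 (0.514 to 0.781), 0.72 in DPI 2 (0.37 to 1.37) and 3.06 in DPI 4 (2.05 to 4.68). Ear1 and Ear6 kept a closer ratio, with 2.02 Ear1 counts per Ear6 count in DPI 1 (1.61 to 2.54), 1.39 in DPI 2 (0.728 to 2.70) and 1.74 in DPI 4 (0.959 to 3.23), intervals that all overlap.

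**Figure D3:**
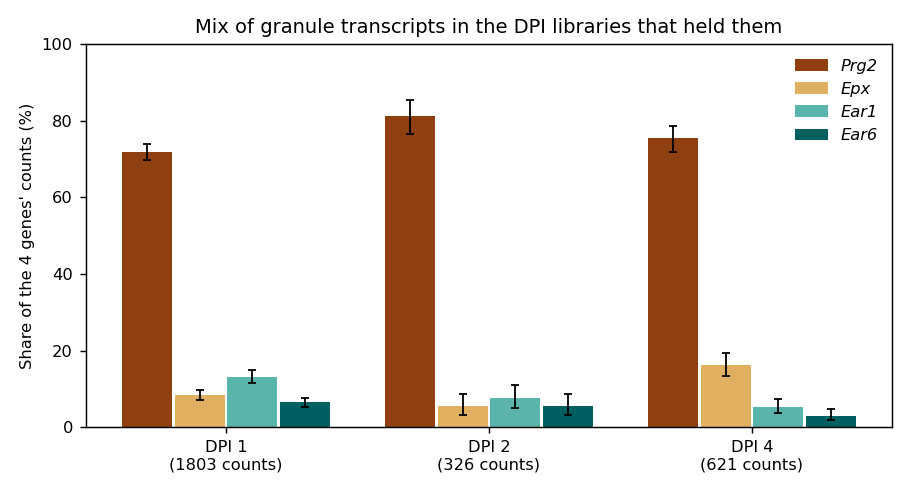
Share of each gene in the summed counts of Prg2, Epx, Ear1 and Ear6 (y axis, percent) in the 3 DPI libraries with over 10 such counts. Bars are shares and error bars are exact 95% binomial intervals, which cover counting error only. Prg2 made up most of the counts in each library, and the Epx share was 16.3% in DPI 4 against 8.37% in DPI 1.

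Across all 9 libraries the log2 CPM of Prg2 went with that of Epx (Pearson's r 0.96, Spearman's rho 0.78), Ear1 (0.97 and 0.91) and Ear6 (0.96 and 0.84), and Ear1 with Ear6 (0.99 and 0.92). With Ear2 the r of Prg2 was -0.28 and with Il5ra -0.34. These values describe libraries that fall into 3 high and 6 low ones, that share one table and its scaling, and from which the genes had been chosen.

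Il5ra encodes the IL-5-binding chain of the IL-5 receptor, which B-1 cells carry as well, and lies at chr6:106710357-106749037 on the minus strand. It had 36 and 29 counts on NC, 24, 31 and 25 under vehicle and 71, 7, 27 and 93 under DPI. In CPM these were 6.55 and 5.41 with NC, 5.32, 5.61 and 6.19 under vehicle, and 4.35, 2.37, 5.00 and 9.47 under DPI. The DPI libraries spread on both sides of the vehicle libraries, and DPI 2, which had the highest Prg2 level, had the lowest Il5ra level. The log2 fold change of DPI against vehicle was -0.09 (SE 0.71), and it was 0.13 without DPI 2 and -0.53 without DPI 4. Ccr3, the eotaxin receptor (chr9:124021972-124031689, plus strand), had 3 counts in Veh 3, 6 in DPI 4 and 0 in the other 7 libraries, too few for the test. Its counts in the 3 libraries with high Prg2 were 0, 0 and 6, so the eotaxin receptor was at or near 0 where the granule genes were high.

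At the study's own threshold, an unadjusted p under 0.05 with at least a 2-fold change, 4 of the 6 genes tested (Prg2, Epx, Ear1 and Ear6) were higher under DPI and 0 were lower, where 1.5% of all 11393 genes tested were higher and 1.34% lower. The genes had been chosen on this contrast, and all 4 passed the filter on low counts only through DPI libraries, so nothing is read from that count. No gene of the table had an adjusted p under 0.05 for DPI against vehicle (0%) by edgeR's quasi-likelihood test (Benjamini-Hochberg), with 470 at an unadjusted p under 0.05, while DESeq2 gave 2 and edgeR's likelihood ratio test 1.

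The comparison of vehicle-treated HFD mice with NC mice addresses the diet, and for the eosinophil genes it can be tested where they were above the floor. The labels name no injection for the NC mice, so the diet and the vehicle injections cannot be told apart. Ear2 was lower on the HFD in all 3 libraries than in either NC library (51.97 to 66.1 CPM against 67.9 to 96.2), with means of 59.8 ± 7.18 (SD, n = 3) and 82.0 ± 20.0 (n = 2). The log2 fold change was -0.46 (SE 0.38), with an adjusted p of 0.652 by edgeR's quasi-likelihood test (Benjamini-Hochberg), so the difference did not pass. Without NC 1, the library with the most Ear2 in CPM, the log2 fold change was -0.17. Il5ra was at 5.71 ± 0.441 CPM with the HFD and 5.98 ± 0.806 with NC, a log2 fold change of -0.07 (SE 0.84, adjusted p = 0.987 by the same edgeR test). Neither gene passed the study's threshold, which 7.03% of all genes passed upwards and 4.63% downwards, or had an adjusted p under 0.05, as 0.0614% of all genes did. Prg2, Epx, Ear1 and Ear6 held at most 10 counts in any of these 5 libraries, and Epx and Ear6 none, so they are not counted and no fold is given for them.

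Further eosinophil genes did not all follow Prg2. Prg3, which encodes a second major basic protein and lies 4582 bases from Prg2 on chromosome 2, had 0 and 0 counts with NC, 11, 0 and 0 under vehicle and 33, 11, 0 and 2 under DPI. Veh 1 thus held Prg3 and no Prg2, and Veh 2 held Prg2 and no Prg3. In CPM Prg3 was higher in Veh 1 (2.44) than in DPI 1 (2.02) or DPI 4 (0.204). Siglec5, an older symbol of the eosinophil surface lectin gene Siglecf, had 9, 7 and 0 counts under vehicle and 0, 0, 0 and 20 under DPI, and none with NC, so 2 of the 3 libraries with high Prg2 had none. Alox15, the 12/15-lipoxygenase gene that eosinophils share with some macrophages, passed the study's threshold under DPI (log2 fold change 2.34, SE 1.02, adjusted p = 0.999 by edgeR), with 464, 53, 51 and 48 counts against 26, 16 and 1, and so was present in DPI 3 as well. In CPM DPI 4, at 4.89, lay below Veh 1, at 5.76, so the DPI and Veh groups overlapped for Alox15. It had 12 and 216 counts on NC, and NC 2, at 40.3 CPM, lay above every DPI library. Of 12 such genes that have counts listed, 6 were at 0 in every library and 4 were tested, with 1 higher and 0 lower, where 1.5% of all genes were higher and 1.34% lower, and a median log2 fold change of -0.02. The tested genes include Ear3 and Ear12 with their equal counts, and with these counted once, a choice made after seeing the data, the median of the 3 genes was 0.83.

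The ligands and partners of the IL-5 receptor and CCR3 did not share the pattern of Prg2. Il5, Il3 and Csf2, the ligands that signal through the common beta chain, were at 0 counts in all 9 libraries. Of 19 tested genes of that receptor pathway 0 were higher and 1 was lower at the study's threshold under DPI, against 1.5% and 1.34% of all genes. Their median log2 fold change was -0.21 where all genes had 0.04. The lower gene was Csf2rb2, which encodes the IL-3-specific beta chain, with 119, 45.5 and 146 CPM under vehicle and 43.3, 45.1, 40.8 and 43.6 under DPI (log2 fold change -1.26, SE 0.36, adjusted p = 0.999 by edgeR), and Veh 2 lay close to the DPI libraries. Csf2rb, the common beta chain that partners Il5ra, was at 399, 224 and 397 CPM under vehicle and 148, 137, 201 and 278 under DPI (log2 fold change -0.83, SE 0.31), which is less than 2-fold. Among the CCR3 ligands Ccl24, eotaxin-2, was lower at the study's threshold, with 28.2, 16.8 and 23.8 CPM under vehicle and 7.34, 11.2, 6.30 and 14.97 under DPI (log2 fold change -1.20, SE 0.48, adjusted p = 0.999 by edgeR). It was 1 of 3 tested ligands (median -0.62), where 1.34% of all genes were lower, and Ccl11, eotaxin-1, had 1 count in NC 2, 2 in DPI 4 and 0 elsewhere. Of the transcription factors of the lineage, Gata1 was at 0 in every library, and Gata2 had 0 and 69 counts with NC, 0, 32 and 35 under vehicle and 21, 20, 57 and 99 under DPI. Of 10 tested factors 0 passed the threshold in either direction (median -0.35). Of 6 tested type 2 cytokines and receptors likewise 0 passed (median 0.10).

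Genes of other cell types were read beside the granule genes. Mcpt8 and Prss34, proteases of basophils, had 57 and 166 counts in DPI 1, 71 and 167 in DPI 2, 0 and 29 in DPI 3 and 46 and 106 in DPI 4, so Mcpt8 was present in the libraries with Prg2 and at 0 in DPI 3. They had 77 and 88 counts in Veh 2, the vehicle library with Prg2, 1 and 0 in Veh 1 and 0 and 0 in Veh 3. In the NC libraries, however, Mcpt8 had 70 and 77 counts and Prss34 181 and 195 where Prg2 had 0 and 1, so both proteases were present without Prg2 there. Other genes of the list did not share the pattern of Mcpt8. Ms4a2, a chain of the IgE receptor, had 0, 20, 19 and 20 counts under DPI, and Cpa3, a mast cell carboxypeptidase also found in basophils, had 0, 12, 19 and 28, so both were at 0 in DPI 1, where Prg2 had 1296, and present in DPI 3. Of 9 tested basophil and mast cell genes 0 passed the study's threshold (median 0.71), and the list of 16 summed to 77.8 to 177 CPM with NC, 174 to 219 under vehicle and 29.9 to 333 under DPI. Their part in the Prg2 counts was not tested.

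Of 20 tested neutrophil genes 3 were higher and 0 lower under DPI at the study's threshold, which 1.5% of all genes passed upwards (median 0.47). They were the granule genes Camp, Ltf and Ngp, for which log2 fold changes were 1.06, 1.39 and 1.18, while the granule genes Mpo (0.81, SE 0.88) and Elane (0.84, SE 1.03) did not pass, and S100a8 was at -0.38 (SE 0.69). The NC libraries lay at 48.2 and 33.9 CPM for Camp, 36.2 and 35.2 for Ltf and 185 and 83.0 for Ngp, within the range of the DPI libraries for Camp, below it for Ltf and on both sides of its lower end for Ngp. In Veh 2 Ltf was at 56.9 CPM, above DPI 1 (55.3) and DPI 2 (52.6). Ngp was at 137 CPM in Veh 2 and 119 in Veh 3, above DPI 2 (112). The DPI and Veh groups thus overlapped for both, but not for Camp (at most 22.5 under vehicle, at least 23.2 under DPI). Unlike Prg2, Camp, Ltf and Ngp were all high in DPI 3, with 299, 498 and 2334 counts. The neutrophil list summed to 2157 to 4468 CPM with NC, 3281 to 4790 under vehicle and 1518 to 6878 under DPI, with the lowest sum in DPI 2, and its part in the granule gene counts was not tested. Of 12 tested genes of patrolling monocytes, the cells that share Ear2, 0 were higher and 1 lower, against 1.5% and 1.34% of all genes. The lower gene, Nr4a1 (log2 fold change -1.08, SE 0.40), was at 363, 521, 785 and 1666 CPM under DPI and 1573 to 1867 under vehicle. DPI 4 thus lay inside the vehicle range. The list had a median of -0.26 and sums of 2063 to 2081 CPM with NC, 2900 to 3204 under vehicle and 1325 to 2789 under DPI. Classical monocyte genes had 0 of 9 past the threshold (median 0.01). Of 14 tested Kupffer cell and macrophage genes C1qa and C1qc were higher and Spic was lower (median 0.51). Of all genes 1.5% were higher and 1.34% lower. C1qa ran from 32.1 to 124 CPM under DPI, 19.8 to 41.5 under vehicle and 82.0 to 92.4 with NC. For C1qc these ranges were 28.4 to 140, 28.0 to 40.3 and 46.9 to 60.4. For both genes the DPI and Veh groups thus overlapped.

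**Figure D4:**
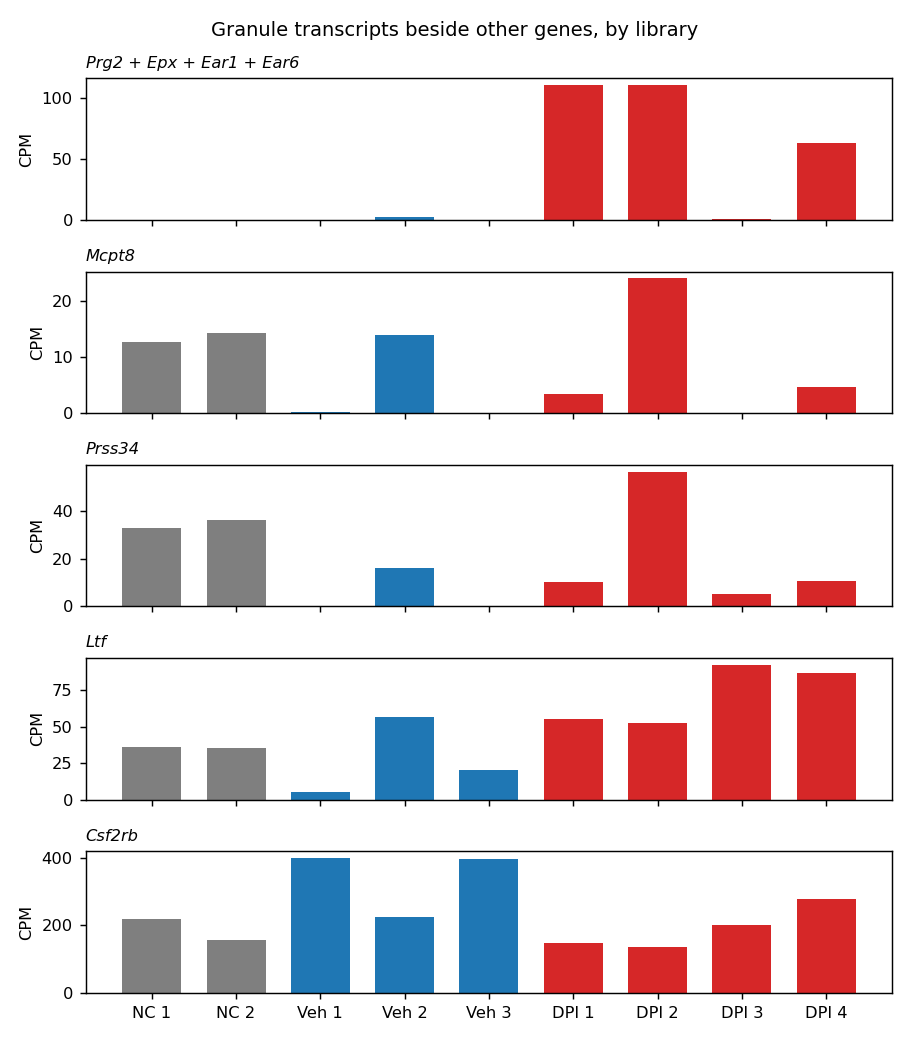
CPM (y axes, linear, each from 0) in the 9 libraries of the summed Prg2, Epx, Ear1 and Ear6, of the basophil protease genes Mcpt8 and Prss34, of the neutrophil granule gene Ltf and of Csf2rb. The summed granule genes reached 110, 111 and 63.3 CPM in DPI 1, DPI 2 and DPI 4 and at most 1.99 elsewhere, whereas Mcpt8 was also present in both NC libraries and Ltf also in DPI 3.

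The genes whose log2 CPM came closest to that of Prg2 over the 9 libraries, the 7 genes left out, were ranked by Pearson's r as a description. The first 10 were Pbk (0.985), Slco3a1 (0.955), Hist1h2bl (0.946), Usp39 (0.940), Wnt6 (0.939), Hdac11 (0.922), Cog2 (0.917), Yars (0.915), Wdhd1 (0.911) and Rad54l (0.907), and no other gene of the 11387 ranked was above 0.9. Pbk, a mitotic kinase gene, had 80, 10, 0 and 38 counts under DPI, 1 in Veh 2 and 0 in the other 4 libraries. Hist1h2bl, a replication-dependent histone gene, had 33, 3, 0 and 20 counts under DPI and none elsewhere, and Wdhd1, a replication factor gene, had 87, 9, 2 and 29 under DPI and 2 in Veh 1. Rad54l, a homologous recombination gene, had 56, 9, 1 and 18 under DPI and 14 in Veh 2, a library shallower than DPI 1 and DPI 4. Slco3a1 had 118, 11, 2 and 57 counts under DPI and 8 in Veh 2, and Wnt6 had 107, 8, 0 and 15 under DPI and 7 in Veh 2. Hdac11 had 13, 11, 0 and 20 under DPI and none elsewhere. A shared function of the 10 genes was not tested. Usp39, Cog2 and Yars were expressed in all 9 libraries and differed far less between them, with log2 fold changes of DPI against vehicle of 0.92, 0.42 and 1.00. Spearman's rho in place of Pearson's r kept 3 of the 10. Likeness over 9 libraries of which 3 are high says little about any single gene.

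**Figure D5:**
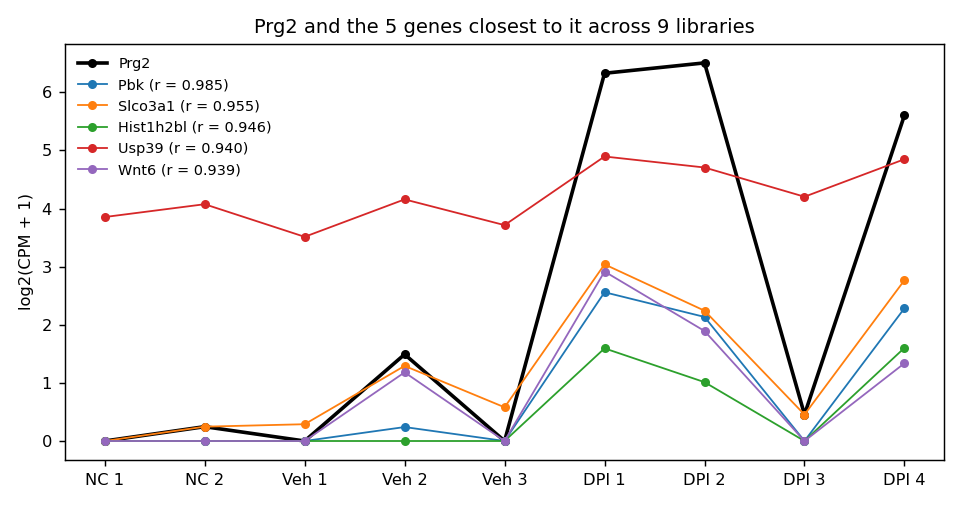
Level of Prg2 and of the 5 genes with the highest Pearson correlation with it (y axis, log2(CPM + 1)) in the 9 libraries, which have no order along the line. The correlations in the legend were computed on log2 CPM with a prior count of 2. All 6 genes were lower in DPI 3 than in DPI 1, DPI 2 and DPI 4, and Usp39 moved over the smallest range.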

How the data were processed

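RNA-seq of sorted mouse liver macrophages was taken from the deposited table of raw counts per gene, without normalization, in 9 columns that each name 1 library. The authors describe alignment to mm10 with bowtie2 and counts estimated with RSEM, while the submitters' processing notes name TopHat2, edgeR and mm10. The annotation is not given in the sources used here. Groups were taken from the sample labels. Same-numbered libraries come from different mice, and their deviations from the group means correlated at -0.00602 to 0.0841, so no block was used.

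Counts were fitted with edgeR 4.0.16 in R 4.3.3 (filterByExpr, TMM, glmQLFit over the 3 groups, glmQLFTest), with Benjamini-Hochberg adjustment over 11393 genes. The script was tested on simulated data. CPM used the TMM-scaled totals, and log2 CPM a prior count of 2. Depth was 3534325 to 15585775 counts, and 3 counts were the floor. Ratios and shares carry exact 95% intervals. DESeq2 1.42.0, other scalings and filters, a 2-group fit, a replicate block, counts without Rn45s and each library left out were alternatives.

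The 7 genes and the 12 lists of other genes were chosen with earlier results of these data known. Of 161 list symbols, 153 were in the table. All 7 genes were named, at most 4 genes of each list, by the smallest unadjusted p for DPI against vehicle and first those past the study's threshold, genes that define a cell type where a result turned on them, and the 10 genes most like Prg2 and the 5 most like Ear2. Positions came from GENCODE M21 and start sites from RefSeq (GRCm38.p6), where 6 of the 7 genes matched. Other tools were Biopython 1.88, pandas 2.3.3, scipy 1.17.1, numpy 2.4.6, matplotlib 3.10.9 and Python 3.11.15.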

Additional observations from a re-analysis of the deposited data

Results flagged for a closer look

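On the log2 CPM scale, 2 of 18 sets of 4 DPI libraries (6 of the genes and the sums of 12 lists) held a library whose distance from its nearest neighbour exceeded the 95% critical value of Dixon's test. Both were DPI 3. The genes had been selected on high Prg2 in 3 of 4 DPI libraries, so these distances restate the selection and are given as values only. It had a Prg2 level of -0.57, against 5.58 to 6.49 in the other DPI libraries, a gap of 0.871 of the whole range. It had an Epx level of -1.72, against 2.68 to 3.40, a gap of 0.859 of the range. The level of a library with 0 counts depends on the prior count of 2. Ear1 and Ear6 were at 0 counts in DPI 3 as well, but their other DPI libraries lay further apart.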

How the results depend on the processing

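Of 11393 genes, 1329 passed the study's threshold in the HFD and NC comparison and 324 did so for DPI against vehicle. With at least 10 counts in every library these became 726 and 202, and without a filter DPI against vehicle gave 602. Leaving out 1 library gave 1027 to 2634 for HFD against NC, the highest without NC 2, and 187 to 543 for DPI against vehicle, with 543 without NC 1, 542 without NC 2, 187 without Veh 1, 521 without Veh 2, 210 without Veh 3 and 213 without DPI 1. Genes with an adjusted p under 0.05 for HFD against NC numbered 7, but 1 with library size alone or with at least 10 counts in every library, 52 without a filter, 319 with DESeq2, 280 with the likelihood ratio test, 0 with the 2 groups only, 0 with the replicate block and 1 to 568 with a library left out (568 without NC 2). For DPI against vehicle they numbered 0, but 2 with DESeq2 and 1 with the likelihood ratio test. The cause was not tested. Library size alone moved the median of all genes for HFD against NC from 0.03 to -0.26 and the share of higher calls from 60.3% to 36.6%, and for DPI against vehicle that share from 52.8% to 66%. The latter fell to 32.2% with at least 10 counts in every library, 37.4% with the replicate block and 39.3% with the 2 groups only, so the balance of higher and lower calls turned with the setting.

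Ear2 stayed lower on the HFD in all 18 alternatives (log2 fold change -0.74 to -0.17, adjusted p 0.401 to 0.924), while Il5ra changed sign without NC 1 (0.0861) and without Veh 1 (0.0281). Prg2 kept a log2 fold change of 5.76 to 6.85 in all alternatives but the one without Veh 2, where vehicle is at 0, and it could not be fitted with at least 10 counts in every library. Under the replicate block, which follows numbers that pair no animals, the log2 fold change of DPI against vehicle was 6.85 for Prg2, -0.38 for Ear2 and -0.59 for Il5ra, and 897 and 401 genes passed the study's threshold. Of the 10 genes most like Prg2, 3 remained with Spearman's rho. With Ear3 and Ear12 counted once, chosen after seeing the data, the median of the other eosinophil genes moved from -0.02 to 0.83 and that of the ribonucleases from 0.17 to 0.43. Depth limits Epx, Ear1, Ear6 and Ccr3, whose absence cannot be told from a level under 3 counts per library.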

Other observations

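The genes most like Ear2, which of the 7 genes had the highest mean CPM over the 9 libraries, were Snrnp25 (Pearson's r 0.928), Tmem107 (0.923), Cenpt (0.921), Serpina1d (0.920) and Rdx (0.918). Snrnp25, a gene of the minor spliceosome, had 224 and 60 counts with NC, 38, 56 and 37 under vehicle and 37, 34, 0 and 32 under DPI, and Cenpt, a kinetochore gene, had 63 and 19, 12, 10 and 11, and 6, 14, 0 and 8. Like Ear2, these genes were highest in NC 1, and the first 4 were at 0 in DPI 3.

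Among the heme peroxidases, the enzyme family of Epx, Ptgs1 was higher under DPI at the study's threshold (log2 fold change 4.25, SE 1.51, adjusted p = 0.999 by edgeR). It had 3 and 108 counts with NC, 3, 2 and 1 under vehicle and 358, 26, 1 and 26 under DPI, so it too was near 0 in DPI 3, but unlike Epx it was present in NC 2. Mpo, the neutrophil peroxidase, had 77, 126 and 31 counts under vehicle and 666, 21, 323 and 34 under DPI, and Lpo had none. Of 3 tested heme peroxidases 1 was higher and 0 were lower (median log2 fold change 0.81), where 1.5% of all genes were higher and 1.34% lower. Among the other secreted ribonucleases 0 of 5 tested genes passed the threshold (median 0.17, or 0.43 over 4 genes with Ear3 and Ear12, which have equal counts, counted once), and Rnase4 had 76, 186 and 55 counts under vehicle and 762, 86, 138 and 348 under DPI.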
